A study of Homo sapiens with 6 samples.

Results

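The genes described here encode channels, sensors and pumps that set calcium levels in the cell: ORAI1, ORAI3, STIM1, STIM2, ITPR1, ITPR3, RYR2, ATP2A2, ATP2B1 and ATP2B4. They are a named list of genes and were matched through NCBI Gene IDs to 10 of the 16623 genes in the files. Expression was measured by RNA sequencing in MDA-MB-231, an established human breast cancer cell line that lacks hormone receptors. The adherent cells received PCI-24781, an inhibitor of histone deacetylases, at 100 nM or 200 nM, or the solvent DMSO alone, and RNA was taken at 24 h or 48 h. There was 1 library per condition and 6 in all, so no replicate error exists, no test between conditions was made, and every difference given here compares 2 libraries. The study followed calcium influx as a candidate target of the inhibitor and proposed a route through RGS2, Gαq and PLCβ3. The genes here encode entry, release, uptake and export steps of calcium handling. By RT-qPCR the study found no effect on PMCA1 and PMCA4b, products of ATP2B1 and ATP2B4. It placed RYR2 in a panel of calcium-binding genes that it described as mostly lower or unchanged.

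When the calcium store of the endoplasmic reticulum (ER) is emptied, STIM proteins in its membrane sense the loss and open ORAI channels in the plasma membrane, through which calcium enters the cell (store-operated entry). Inositol trisphosphate receptors (ITPR genes) and ryanodine receptors (RYR genes) release calcium from the store, SERCA pumps (ATP2A genes) refill it, and PMCA pumps (ATP2B genes) send calcium out across the plasma membrane. Breast cancer cells are known for using ORAI and STIM proteins in migration and growth, and the ORAI family member used can differ between breast cancer subtypes.

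Values are FPKM, fragment counts scaled by transcript length and by the size of the library, which can be compared between genes. From the steps between low values, the libraries were inferred to hold about 15700000 to 18100000 fragments, the fewest at 200 nM 48 h. The 95% intervals given here are exact Poisson intervals for an FPKM and exact binomial intervals for a ratio. They are built on these inferred fragments and do not cover the variation from one culture to another or a change of library scaling. In bulk RNA, fewer cells that express a gene and less of its RNA per cell cannot be told apart. All 5 markers expected of the line (VIM, CD44, AXL, CAV1 and MSN) were at 154 FPKM or more in every library, and of the 5 expected to be absent or low, ESR1 and PGR did not exceed 0.04, CDH1 lay between 0.24 and 0.39, GATA3 between 0.70 and 1.03 and FOXA1 between 1.28 and 1.75. Of the markers of other cell types, CD3E and HBB stayed at or below 0.11, while the leukocyte gene PTPRC lay between 0.76 and 1.01 and the endothelial gene PECAM1 between 0.38 in DMSO 24 h and 2.33 at 200 nM 48 h. The part of such signal in the values below was not tested.

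The libraries labelled DMSO 48 h and 100 nM 48 h stand against the rest of the series. A set of 521 genes passed a 2-fold increase over DMSO at 200 nM 24 h. Against DMSO 48 h, 439 of them had a lower value at 100 nM, whereas 496 had a higher one at 200 nM. An effect of the low dose and an exchange of both labels cannot be told apart. Labels were used as given, and all 6 values of each gene are printed. Where an exchange of the labels would turn a 48 h direction or ranking described below, the exchanged value is given beside it.

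The 250 bases upstream of the annotated start are shown for ITPR1 and ATP2B4, whose values moved together most closely, for ORAI3, which had the widest range in log2(FPKM + 1), and for RYR2, which had the widest range as a ratio. They are RefSeq sequence on the plus strand of GRCh38.p14, written 5′ to 3′, with the GC box (GGGCGG, or CCGCCC on the other strand, overlaps counted) in capitals. ITPR1 lies at chr3:4493098-4493347, ATP2B4 at chr1:203626582-203626831, ORAI3 at chr16:30948818-30949067 and RYR2 at chr1:237041934-237042183.
ITPR1: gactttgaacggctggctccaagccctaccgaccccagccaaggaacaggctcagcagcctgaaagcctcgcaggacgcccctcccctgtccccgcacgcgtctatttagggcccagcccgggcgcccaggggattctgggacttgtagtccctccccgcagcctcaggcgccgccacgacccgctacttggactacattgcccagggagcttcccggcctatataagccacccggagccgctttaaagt
ATP2B4: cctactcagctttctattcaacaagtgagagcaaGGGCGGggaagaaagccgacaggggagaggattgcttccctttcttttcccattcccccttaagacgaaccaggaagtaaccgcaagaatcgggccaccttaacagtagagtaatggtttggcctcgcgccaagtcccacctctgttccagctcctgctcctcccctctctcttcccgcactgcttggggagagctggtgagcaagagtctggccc
ORAI3: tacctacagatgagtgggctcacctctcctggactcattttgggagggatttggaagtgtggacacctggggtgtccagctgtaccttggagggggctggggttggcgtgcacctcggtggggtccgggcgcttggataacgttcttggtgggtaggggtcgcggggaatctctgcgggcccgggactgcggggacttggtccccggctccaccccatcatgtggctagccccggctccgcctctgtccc
RYR2: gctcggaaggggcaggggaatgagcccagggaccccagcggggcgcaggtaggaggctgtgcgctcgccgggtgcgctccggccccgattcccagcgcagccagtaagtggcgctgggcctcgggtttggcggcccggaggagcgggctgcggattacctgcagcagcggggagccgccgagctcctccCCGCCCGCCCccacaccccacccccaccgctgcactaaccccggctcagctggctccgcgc

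The ITPR1 and ORAI3 windows held no GC box, that of ATP2B4 held 1 and that of RYR2 held 2 that overlap. Over all 35116 promoter windows of this length in the table, 42.6% held at least 1. None of these 4 windows held a CCAAT box (CCAAT or ATTGG, 32.0% of all windows), the TATA letters (TATAAA or TTTATA, 10.7%) or an E-box (CACGTG, the same on both strands, 6.34%). The window of RYR2 held 25 CpG dinucleotides, those of ITPR1 and ORAI3 held 17 and 13, and that of ATP2B4 held 8, against a median of 11 over all windows. The pair that moved together thus differed in both counts. A match here is a run of letters and not a shown binding site. The letters TATATAAG near the end of the ITPR1 window, for example, were not matched by the TATA letters used. Promoters of 9 of the 10 genes were in the table, and ORAI1 was named only.

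Store-operated entry is described first. ORAI1 (NCBI Gene ID 84876, chr12:122064455-122079946 in hg19), the main pore subunit of the store-operated channel, had 25.84, 25.29 and 29.31 FPKM with DMSO, 100 nM and 200 nM at the first time. Its 48 h values were 27.42, 26.40 and 27.85 in the same order. It was the steadiest of the 10 genes, with a highest value 1.16 times the lowest and overlapping ranges at both times. Against DMSO of the same time its ratio was 1.13 (95% interval 1.02 to 1.26) at 200 nM 24 h, and the intervals of the other 3 ratios included 1. With the libraries rescaled by median-of-ratios factors, its log2 difference at 200 nM 24 h went from 0.175 to 0.113.

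ORAI3 (93129, chr16:30960405-30966259), a pore subunit that can form channels with ORAI1, had 8.57, 8.96 and 7.84 FPKM in DMSO, 100 nM and 200 nM at 24 h and 20.01, 21.26 and 14.69 at 48 h. Every 48 h library was above every 24 h library, with or without the inhibitor. The 48 h to 24 h ratio was 2.34 (2.06 to 2.66) in DMSO, 2.37 (2.09 to 2.70) at 100 nM and 1.87 (1.62 to 2.17) at 200 nM. Within a time the differences were smaller. At 24 h the ratios to DMSO were 1.05 (0.898 to 1.22) at 100 nM and 0.916 (0.782 to 1.07) at 200 nM. At 48 h they were 1.06 (0.963 to 1.17) and 0.734 (0.655 to 0.822), so only the 200 nM 48 h library lay below its DMSO library by more than counting error, with 509 against 777 inferred fragments. This library was also below 100 nM 48 h, at a ratio of 0.691 (0.618 to 0.772), which does not rest on DMSO 48 h. With the labels exchanged, the 100 nM 48 h ratio to DMSO was 0.941 (0.853 to 1.039).

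STIM1 (6786, chr11:3876933-4114440), the main sensor of store calcium, had 24 h values of 15.64, 20.54 and 24.51 FPKM with DMSO, 100 nM and 200 nM. The corresponding 48 h values were 18.77, 19.17 and 19.78, so that the 48 h values lay close together inside the 24 h range. The 24 h ratios to DMSO were 1.31 (1.18 to 1.46) at 100 nM and 1.57 (1.41 to 1.74) at 200 nM. The 48 h ratios were 1.02 (0.922 to 1.13) and 1.05 (0.948 to 1.17). By the labels as given, only STIM1 was ordered by dose at both times, but the 48 h steps were within counting error. With the labels exchanged, STIM1 had no order at 48 h, and its 100 nM ratio there was 0.978 (0.882 to 1.085). STIM2 then rose with dose at both times.

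STIM2 (57620, chr4:26862313-27027003), a sensor that responds to smaller losses of store calcium, was several times lower than STIM1. It had 4.42, 4.80 and 5.38 FPKM at 24 h and 3.56, 3.32 and 4.6 at 48 h, in the order DMSO, 100 nM and 200 nM. The 200 nM library was the highest at each time, with ratios to DMSO of 1.22 (1.04 to 1.43) at 24 h and 1.29 (1.08 to 1.55) at 48 h, or 1.39 (1.15 to 1.67) at 48 h with the labels exchanged. At 100 nM both intervals included 1.

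**Figure D1:**
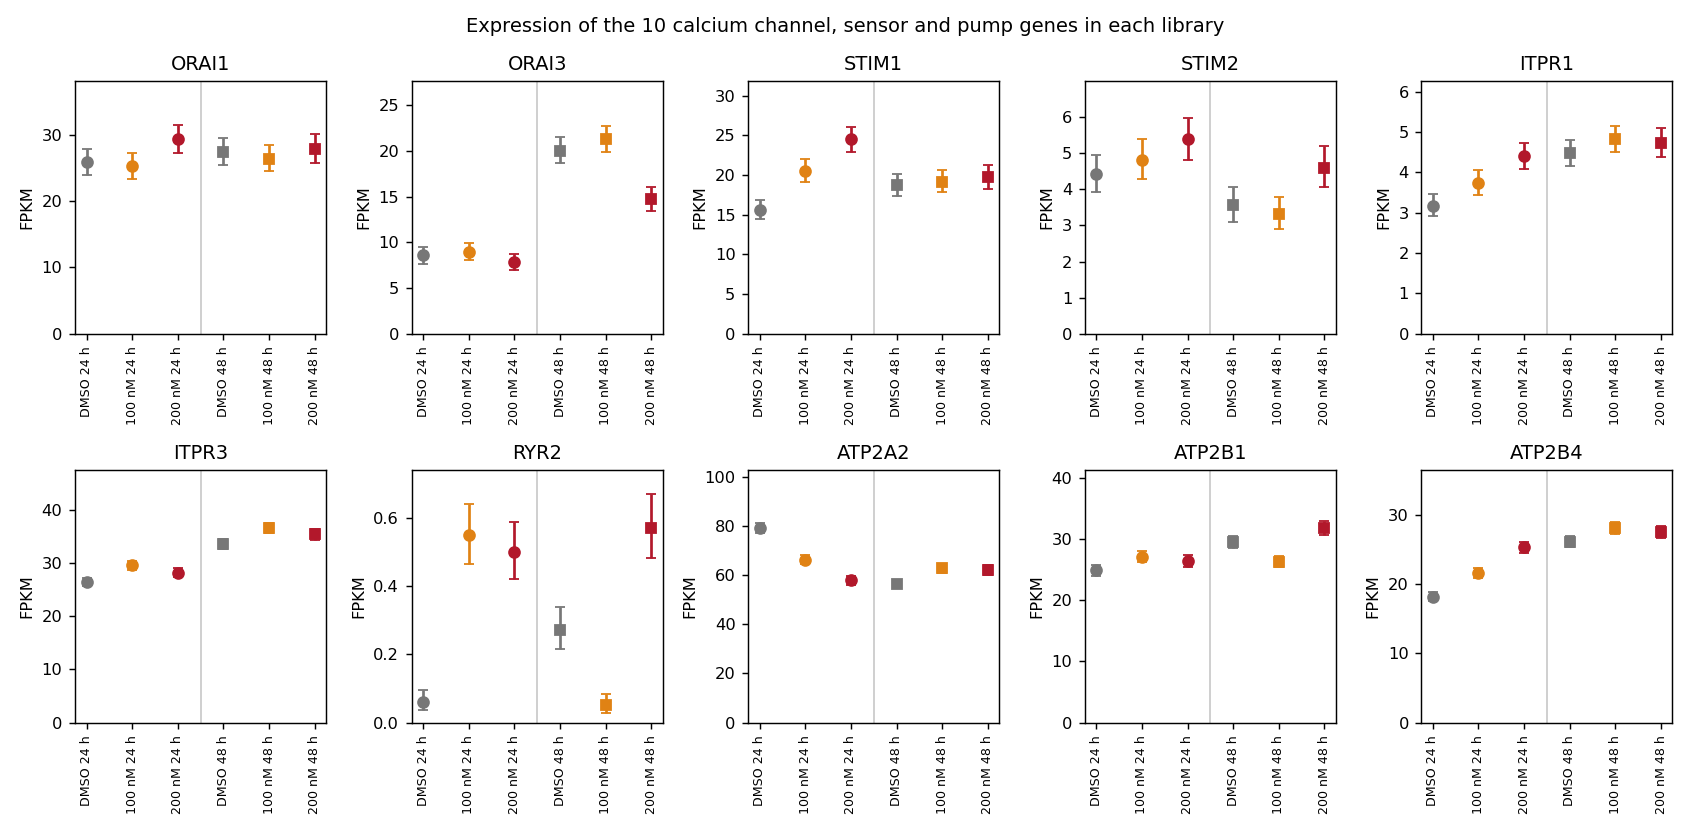
FPKM of the 10 genes in each of the 6 libraries, with circles for 24 h, squares for 48 h, grey for DMSO, orange for 100 nM and red for 200 nM. Bars are 95% Poisson intervals of the inferred fragments (counting error only, 1 library per point). ORAI3 is between 7.84 and 8.96 at 24 h and between 14.69 and 21.26 at 48 h, and RYR2 is below 0.6 throughout.

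Among the release channels, ITPR3 (3710, chr6:33589156-33664351) was by far the most abundant, with 26.48, 29.57 and 28.17 FPKM at 24 h and 33.61, 36.61 and 35.42 at 48 h. The 3 libraries of 48 h were all above those of 24 h, and 100 nM was the highest at each time. The 48 h to 24 h ratio in DMSO was 1.27 (1.22 to 1.32), wider than any of its ratios to DMSO within a time, which lay between 1.05 and 1.12. With the labels exchanged, DMSO 48 h was the highest of its time. The 48 h ratios to DMSO were then 0.918 (0.885 to 0.953) at 100 nM and 0.967 (0.932 to 1.005) at 200 nM.

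ITPR1 (3708, chr3:4535032-4889524) had 3.18, 3.74 and 4.41 FPKM at 24 h and 4.48, 4.82 and 4.74 at 48 h. It rose with dose at 24 h, where the ratios to DMSO were 1.18 (1.05 to 1.32) and 1.39 (1.24 to 1.55). The 200 nM 24 h value was already next to DMSO 48 h, and the 48 h ratios of 1.07 (0.973 to 1.19) and 1.06 (0.952 to 1.17) did not leave counting error. With the labels exchanged, these ratios were 0.93 (0.842 to 1.028) at 100 nM and 0.983 (0.888 to 1.088) at 200 nM. DMSO 48 h was 1.41 (1.26 to 1.58) times DMSO 24 h.

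RYR2 (6262, chr1:237205702-237997288), the ryanodine receptor known from heart muscle, was the one member under 1 FPKM in every library. At 24 h its FPKM was 0.06 with DMSO, 0.55 with 100 nM and 0.50 with 200 nM, and at 48 h the corresponding values were 0.27, 0.05 and 0.57. Because its transcript is 16562 bases long, these low values rest on more than a few fragments. About 18, 158 and 144 fragments were inferred at 24 h and 79, 15 and 148 at 48 h.

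The RYR2 ratios to DMSO at 24 h were 9.13 (5.59 to 15.8) at 100 nM and 8.32 (5.08 to 14.4) at 200 nM. At 48 h they were 0.185 (0.099 to 0.323) at 100 nM and 2.10 (1.59 to 2.80) at 200 nM. DMSO 24 h and 100 nM 48 h were thus the low pair, DMSO 48 h lay between, and the other 3 libraries were alike, with 200 nM 24 h to 100 nM 24 h at 0.911 (0.722 to 1.15). On the log2 scale with 1 added to each FPKM, the 4 differences were 0.55, 0.50, -0.27 and 0.31, which understates a gene this low. RYR2 shared the opposite direction at 100 nM 48 h with the 439 genes above, and with the labels exchanged its 48 h ratios were 5.42 (3.09 to 10.1) at 100 nM and 11.4 (6.68 to 20.8) at 200 nM. The 24 h ratios do not use those libraries.

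The store is refilled by ATP2A2 (488, chr12:110719032-110788898), the widely expressed SERCA pump, which was the most abundant of the 10 genes. Its 24 h values were 79.10, 66.20 and 57.81 FPKM with DMSO, 100 nM and 200 nM, and its 48 h values 56.35, 62.72 and 61.97. The DMSO 24 h library was the highest and the library labelled DMSO 48 h the lowest, and the 4 libraries labelled as treated lay between. At 24 h the ratios to DMSO were 0.837 (0.805 to 0.870) and 0.731 (0.702 to 0.761), and at 48 h they were 1.11 (1.07 to 1.16) and 1.10 (1.05 to 1.15). By the labels as given the direction was opposite at the 2 times for both doses. With DMSO 48 h and 100 nM 48 h exchanged, the 48 h ratios were 0.898 (0.861 to 0.937) and 0.988 (0.947 to 1.03), and the direction was no longer opposite. As labelled, DMSO 48 h was 0.712 (0.684 to 0.742) times DMSO 24 h, a difference as large as the largest with the inhibitor. With the labels exchanged, that ratio was 0.793 (0.763 to 0.824), nearer to 1 than the 0.731 at 200 nM 24 h. The lowest library was then 100 nM 48 h. With DMSO 24 h as the reference, the 48 h log2 differences of 0.15 and 0.13 became -0.33 and -0.35.

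Calcium is exported by ATP2B1 and ATP2B4, both PMCA pumps. ATP2B1 (490, chr12:89981826-90049844, minus strand) had 24.93, 27.20 and 26.44 FPKM at 24 h and 29.63, 26.36 and 31.87 at 48 h. Its ratios to DMSO were 1.09 (1.04 to 1.15) and 1.06 (1.01 to 1.11) at 24 h. At 48 h they were 0.890 (0.848 to 0.933) at 100 nM and 1.08 (1.03 to 1.13) at 200 nM. On the deposited scale all 4 lay outside counting error, and the ratio between the DMSO libraries was 1.19 (1.13 to 1.248). With the libraries rescaled by median-of-ratios factors, the 24 h log2 differences of 0.121 and 0.082 became 0.066 and 0.019. With the labels exchanged, the 48 h ratios were 1.12 (1.07 to 1.18) at 100 nM and 1.21 (1.15 to 1.27) at 200 nM, and the ratio between the DMSO libraries was 1.06 (1.01 to 1.11).

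ATP2B4 (493, chr1:203595915-203713209) had 18.18, 21.58 and 25.26 FPKM at 24 h and 26.06, 28.06 and 27.50 at 48 h. It rose with dose at 24 h, to ratios of 1.19 (1.13 to 1.248) and 1.39 (1.32 to 1.46), while at 48 h the ratios were 1.08 (1.03 to 1.12) and 1.06 (1.01 to 1.10). With the labels exchanged, the 48 h ratios were 0.929 (0.89 to 0.969) at 100 nM and 0.98 (0.939 to 1.023) at 200 nM. DMSO 48 h was 1.43 (1.37 to 1.503) times DMSO 24 h.

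Ordered by mean FPKM over the 6 libraries, ATP2A2 came first at 64.0, and its range did not overlap that of ITPR3 at 31.6. ATP2B1 (27.7), ORAI1 (27.0), ATP2B4 (24.4), STIM1 (19.7) and ORAI3 (13.6) followed, and from ITPR3 to ORAI3 each range overlapped the next. ORAI3 did not overlap STIM2 (4.35), which overlapped ITPR1 (4.23), and RYR2 (0.333) stood alone at the bottom. In each family, 1 gene or a pair of genes made up most of the summed FPKM. ATP2A2 made up 97.2% to 98.9% of the summed FPKM of the SERCA genes, ITPR3 78.8% to 83.7% of the ITPR genes, and STIM1 78.0% to 85.2% of both STIM genes. Within the PMCA genes the share was split, with ATP2B4 at 42.2% to 51.6% and ATP2B1 at nearly all the rest. The ORAI family was the one whose makeup differed most with time: ORAI3 was 22.1%, 23.6% and 19.1% of its FPKM at 24 h and 38.5%, 40.5% and 31.5% at 48 h, while ORAI1 went from between 66.5% and 71.2% to between 50.3% and 59.8%. The summed ORAI FPKM was 38.8, 38.0 and 41.1 at 24 h and 52.0, 52.4 and 46.6 at 48 h, so the difference in share came with a higher ORAI3 value and a level ORAI1 value.

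**Figure D2:**
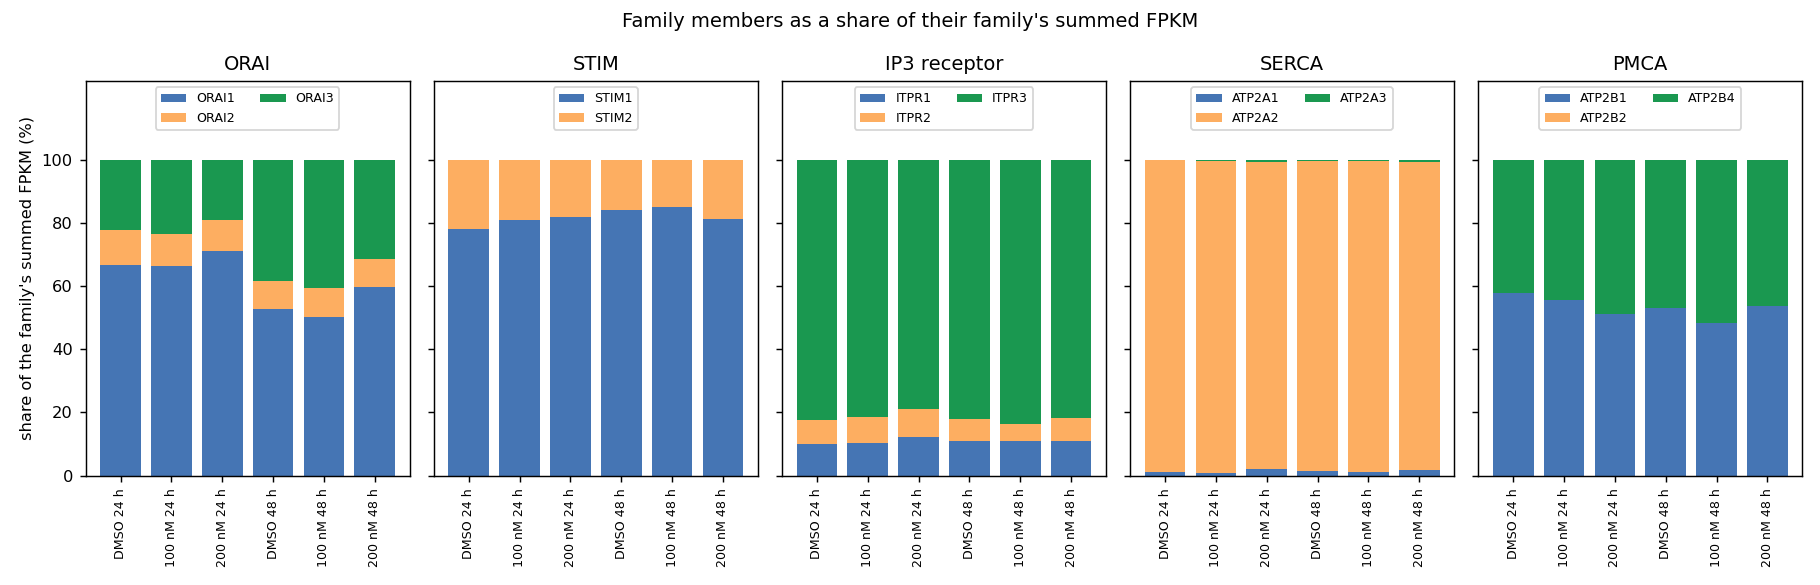
Stacked bars of each gene's share, in percent, of the summed FPKM of its family in each of the 6 libraries, for the ORAI, STIM, inositol trisphosphate receptor, SERCA and PMCA genes found in the files. The ORAI3 share is 19.1% to 23.6% in the 24 h bars and 31.5% to 40.5% in the 48 h bars.

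A gene was called different between 2 libraries when log2(FPKM + 1) differed by at least 2-fold and 1 or both of its values reached an FPKM of 1, which 9 of the 10 genes could meet (RYR2 could not). Against DMSO of the same time, 0 of the 10 genes were called in each of the 4 comparisons. Over all genes tested the share called was 1.48% for 100 nM and 5.94% for 200 nM at 24 h, and 0.469% and 0.266% for the same doses at 48 h. With a 1.5-fold limit, 1 gene was called, STIM1 at 200 nM 24 h, at a log2 difference of 0.62. That limit called 6.8%, 20.1%, 2.26% and 1.99% of all genes in the same order. The absence of 2-fold calls among so few genes is therefore near what the shares over all genes give. The next largest log2 differences among the 9 genes were 0.45 for ATP2B4, -0.45 for ATP2A2 and 0.37 for ITPR1, all at 200 nM 24 h, -0.42 for ORAI3 at 200 nM 48 h and 0.37 for STIM1 at 100 nM 24 h.

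The median log2 difference over all 10 genes was 0.14 for 100 nM and 0.20 for 200 nM at 24 h, and 0.06 and 0.07 for those doses at 48 h. Over all genes tested the medians were 0.01, 0.01, -0.01 and 0.01. Of the 10 genes, 8 exceeded DMSO and 2 were below it at each dose at 24 h. At 48 h, 6 exceeded it and 4 were below at 100 nM, and 9 exceeded it and 1 was below at 200 nM. With the labels exchanged, 4 exceeded DMSO and 6 were below at 100 nM 48 h, with a median of -0.06, and 5 were on each side at 200 nM 48 h, with a median of 0.01. The comparisons at a time share their DMSO library, so they are not independent of each other. With the mean of both DMSO libraries as reference, the median over the 9 genes that reached 1 FPKM went from 0.12 to -0.01 at 100 nM 24 h and from 0.17 to 0.13 at 200 nM 24 h.

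**Figure D3:**
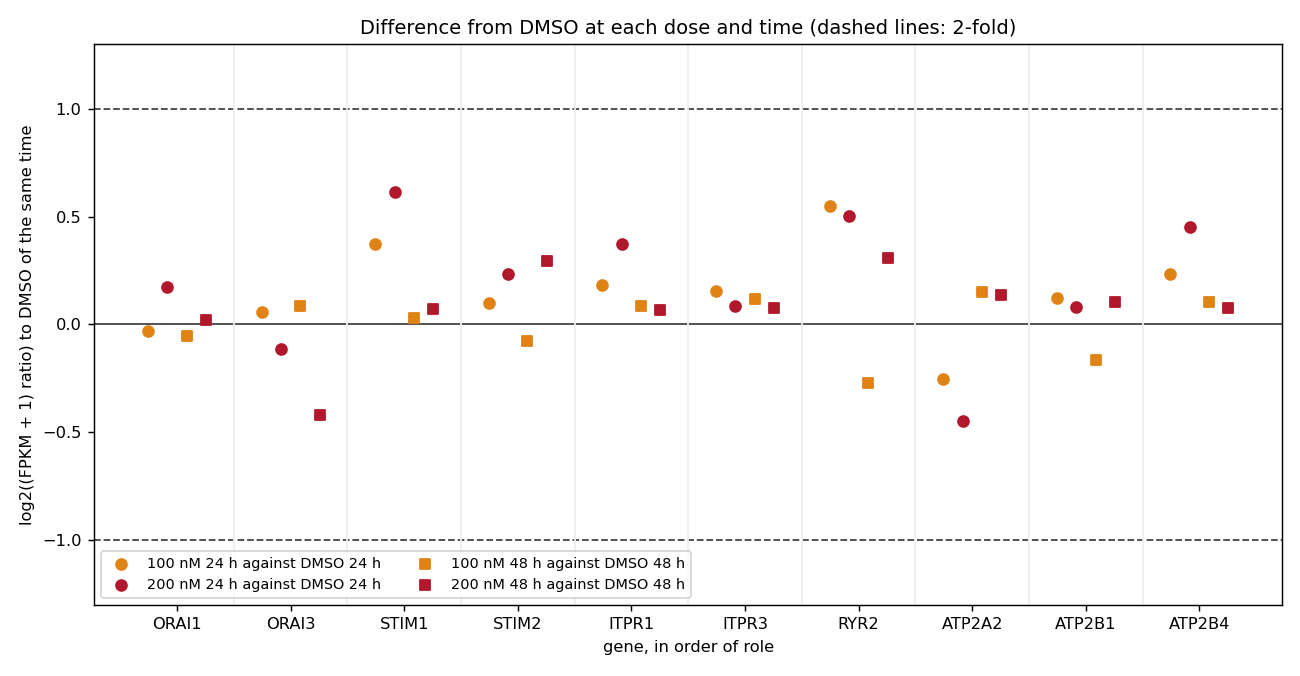
Difference in log2(FPKM + 1) from DMSO of the same time for the 10 genes, with circles for 24 h, squares for 48 h, orange for 100 nM and red for 200 nM, and dashed lines at 2-fold. No point reaches a dashed line, and the point farthest from 0 is STIM1 at 200 nM 24 h at 0.62.

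Between times at the same dose, ORAI3 was the only one of the 10 genes called. It was at least 2-fold higher at 48 h in DMSO and at 100 nM, with log2 differences of 1.13 and 1.16, where 2.62% and 1.82% of all genes were called in either direction. At 200 nM its difference was 0.83 and 0 of the 10 genes were called, against 0.918% of all genes. With the 1.5-fold limit ORAI3 was called at all 3 doses and no other member at any, where 10.4%, 9.91% and 5.92% of all genes were. ORAI3 changed more than 98.3%, 99.0% and 98.1% of the tested genes in these comparisons. The filter kept RYR2 out of these calls. Its 48 h to 24 h ratios were 4.51 (2.68 to 8.005) in DMSO, 0.091 (0.05 to 0.155) at 100 nM and 1.14 (0.899 to 1.44) at 200 nM. The DMSO and 100 nM ratios of RYR2 rest on the doubted labels, and with these exchanged its DMSO ratio was 0.833 (0.391 to 1.75).

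Without reference to a dose, 4 of the 10 genes (ORAI3, ITPR1, ITPR3 and ATP2B4) had all 48 h libraries above all 24 h libraries, a pattern held by 11.3% of the 11893 genes that reached 1 FPKM in 1 or more libraries. None of the 10 had all 48 h libraries below, against 13.2% of all genes. For ITPR1 the gap was 4.41 to 4.48 FPKM, and after rescaling to TPM it closed, leaving 3 genes against 10.4% of all. Without the DMSO 48 h and 100 nM 48 h libraries, 200 nM 48 h was above all 24 h libraries for 6 of the 10 genes, the same 4 with RYR2 and ATP2B1, and for 25.0% of all genes. RYR2 is not among the 11893 genes behind that share. Its 0.57 FPKM (0.481 to 0.669) at 200 nM 48 h overlapped 0.55 (0.466 to 0.641) at 100 nM 24 h. The mean 48 h to 24 h log2 difference was 1.04 for ORAI3, 0.33 for ATP2B4, 0.32 for ITPR3 and 0.26 for ITPR1.

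By dose at 24 h, 4 of the 10 genes rose in the order DMSO, 100 nM and 200 nM (STIM1, STIM2, ITPR1 and ATP2B4) and 1 fell (ATP2A2), where 32.2% and 30.7% of all genes did so. By the labels as given, 1 rose at 48 h (STIM1) and 0 fell, against 10.2% and 11.3%. These counts are near the shares over all genes. With the labels exchanged, STIM1 had no order at 48 h, ORAI1, STIM2, RYR2 and ATP2B1 rose and ORAI3 fell. The shares of all genes under that exchange are not given here. For STIM2 the step from DMSO to 100 nM at 24 h was within counting error, at a ratio of 1.09 (0.922 to 1.28).

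Of the 10 genes, 5 had their lowest value in DMSO 24 h (STIM1, ITPR1, ITPR3, ATP2B1 and ATP2B4) and ATP2A2 had its highest there, so that 6 had an extreme in that library. Over all 11893 genes, 27.1% had their lowest and 25.8% their highest value in DMSO 24 h, or 53.0% either, and 13.4% had either in DMSO 48 h. Time in culture, the inhibitor and a property of the DMSO 24 h library cannot be told apart here.

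Over the 6 libraries, ITPR1 and ATP2B4 had the highest correlation of the 45 pairs of members, with a Pearson r of 0.999 and a Spearman rho of 1 in log2(FPKM + 1). The pair was chosen by this value, and the points share library, depth and reference conditions. Without DMSO 24 h and 100 nM 24 h, the libraries farthest from the median of ITPR1, r was 0.993 over 4 libraries. Both genes had the same order of libraries, from DMSO 24 h at the bottom through 100 nM 24 h, 200 nM 24 h, DMSO 48 h and 200 nM 48 h to 100 nM 48 h at the top. The lowest r was -0.89 between ORAI3 and STIM2 (rho -0.83), and it was -0.44 without DMSO 48 h and 100 nM 48 h, so it rests on those libraries.

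**Figure D4:**
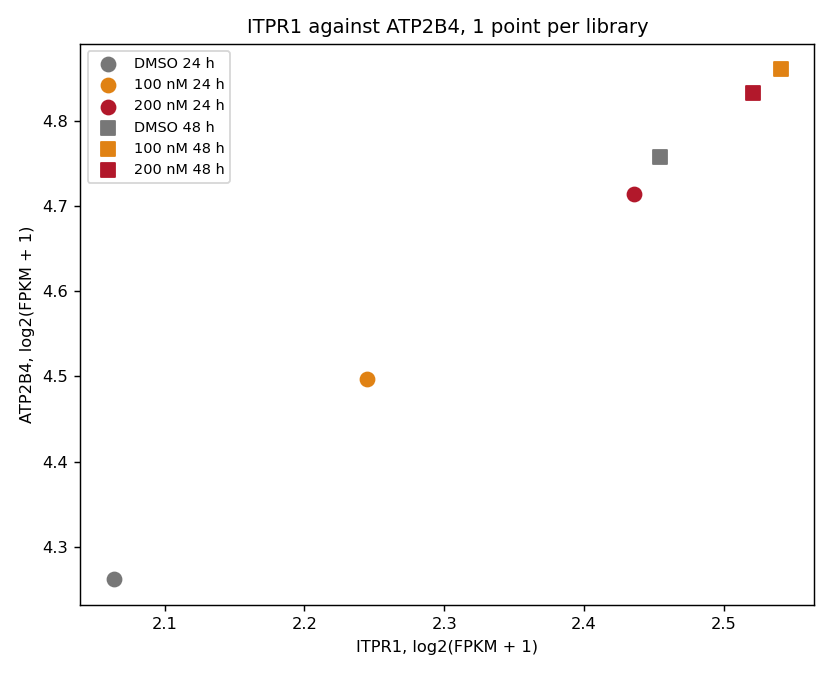
ITPR1 against ATP2B4 in log2(FPKM + 1), 1 point per library, with circles for 24 h and squares for 48 h. The axes do not start at 0. The points lie along a line from DMSO 24 h (3.18 and 18.18 FPKM) to 100 nM 48 h (4.82 and 28.06 FPKM).

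The genes most like a member in pattern were sought for the 3 members with the widest range in log2(FPKM + 1), among 1234 genes that reached an FPKM of 1 and ranged by at least 1 on that scale. For ORAI3 they were SPAG4 (r = 0.992 over 6 libraries), BCL3 (0.990) and SYNGR3 (0.987), and BCL3 had 12.34, 11.84 and 10.64 FPKM at 24 h and 31.34, 39.67 and 26.53 at 48 h. For STIM1 they were MSH5 (0.998), BBLN (0.989) and IFT43 (0.985), and MSH5 had 4.65, 8.20 and 11.06 FPKM at 24 h and 6.85, 7.01 and 7.27 at 48 h. For ATP2B4 they were NOTCH3 and OLFML2A (both 0.992) and SMOX (0.991), and NOTCH3 had 1.34, 2.77 and 3.81 FPKM at 24 h and 4.13, 5.43 and 5.35 at 48 h. Of the genes searched, 29, 35 and 42 passed an r of 0.95 with ORAI3, STIM1 and ATP2B4.

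Beside the 10 genes, 80 other genes of calcium handling were listed by role, of which 72 were found in the files and 42 reached 1 FPKM in 1 or more libraries. Against DMSO of the same time, 1 was called higher and 0 lower at 100 nM 24 h, 2 higher and 1 lower at 200 nM 24 h, and 0 in either direction at both doses at 48 h. Of all genes tested, 1.48%, 5.94%, 0.469% and 0.266% were called in the same order, and the counts are near these shares. Median log2 differences over the 72 genes were 0.01, 0.07, -0.03 and 0.03 in that order, nearer to those of all genes than the members' medians were, with no test of the difference. The 3 called genes were channel genes at low levels. CACNB4, a subunit of voltage-gated calcium channels, was called higher at both doses at 24 h, with 1.87, 5.32 and 5.02 FPKM at 24 h and 4.03, 2.37 and 5.96 at 48 h. CACNA1G, a pore subunit of a low-voltage channel, was called at 200 nM 24 h, with 0.08, 0.53 and 2.13 FPKM at 24 h and 0.38, 0.22 and 1.01 at 48 h. P2RX5, an ATP-gated channel, was called lower at 200 nM 24 h, with 8.28, 5.75 and 3.41 FPKM at 24 h and 6.45, 6.52 and 6.95 at 48 h.

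By the labels as given, both voltage-gated channel genes, like RYR2, had less RNA at 100 nM 48 h than in DMSO 48 h. With the labels exchanged this direction turned. The most abundant listed gene in each role was not called in any of these comparisons. In store-operated entry this was SARAF, which limits STIM activity, with 49.99, 68.18 and 81.59 FPKM at 24 h and 72.16, 66.20 and 75.97 at 48 h. Its log2 difference of 0.70 at 200 nM 24 h passed 1.5-fold, as those of STIM1 and of 20.1% of all genes did. CRACR2A, listed in the same role, passed that limit the other way at -0.64, with 3.46 FPKM in DMSO 24 h and 1.86 at 200 nM 24 h. In other roles the most abundant listed genes had mean values of 2.83 FPKM for the release channel ITPR2, 27.2 for the Golgi pump ATP2C1, 1.998 for the exchanger SLC24A1, 18.6 for the mechanosensitive channel PIEZO1, 5.62 for the channel subunit CACNB1, 25.2 for the ER leak channel TMCO1 and 766 for the store protein CALR. Of the 42 listed genes that reached 1 FPKM, 7 had all 48 h libraries above all 24 h libraries and 2 had them below, against the 11.3% and 13.2% of all genes given above.

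**Figure D5:**
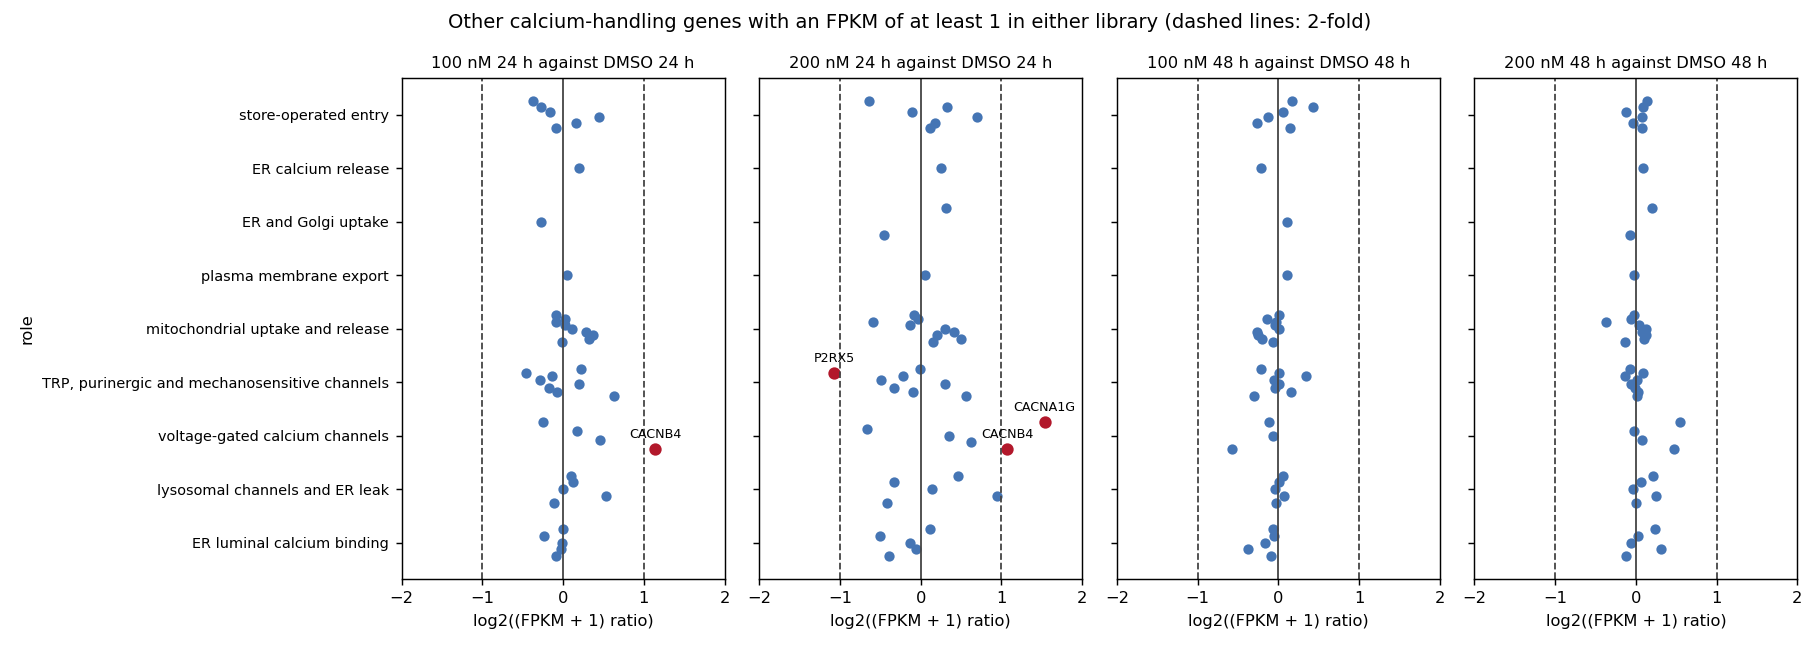
Difference in log2(FPKM + 1) from DMSO of the same time, 1 panel per comparison, for the listed calcium-handling genes other than the 10 that reached 1 FPKM in a library of the pair, in lines by role. Red points with names passed 2-fold (dashed lines): CACNB4 at both doses at 24 h, and CACNA1G and P2RX5 at 200 nM 24 h.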

How the data were processed

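RNA sequencing data of 6 MDA-MB-231 libraries were used, 1 each for DMSO, 100 nM and 200 nM PCI-24781 at 24 h and at 48 h. The deposited FPKM values, given by the authors to 2 decimals for 16623 genes, were made with Bowtie2 and RSEM on hg19 according to the submitters' processing notes, and versions are not given in the sources used here. Any further scaling by the authors is not stated in the sources used here. Gene IDs were named from RefSeq tables for 16585 of the genes. Groups came from the labels.

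Differences were taken as log2(FPKM + 1), with a call at 2-fold where a library of the pair reached 1 FPKM. No test was made, since there was 1 library per condition. Depth was inferred from the steps of low values in 409 to 491 genes with transcripts of 400 to 2000 bases, and a gene's fragments were taken for its shortest listed transcript. The members and lists were chosen with earlier results of these data known. Named genes were the 10 members, each listed gene called against DMSO, the gene with the highest mean FPKM in each role (1 of these is not reported here), and the 3 genes most correlated with each of the 3 widest-ranging members. CRACR2A was named beside SARAF outside these rules. Alternatives changed the pseudocount (0.1, 0.01), filter, fold, scaling (TPM, median-of-ratios factors), reference and the labels of the doubted pair. Python 3.11.15, numpy 2.4.6, pandas 2.3.3, scipy 1.17.1 and matplotlib 3.10.9 were used.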

Additional observations from a re-analysis of the deposited data

Results flagged for a closer look

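By the labels as given, ATP2A2, the SERCA pump gene, was lower than DMSO at both doses at 24 h and higher than DMSO at both doses at 48 h. The mean log2 difference of both doses at 48 h minus that at 24 h was 0.49. The difference between the times was not tested, since each condition had 1 library, and both doses of a time share their DMSO library. The value moves with the DMSO libraries themselves, of which the 24 h library had 79.10 FPKM and the 48 h library 56.35. Their part in the result was not tested. With the labels of DMSO 48 h and 100 nM 48 h exchanged, both 48 h log2 differences were below 0 (-0.15 and -0.02), the value was 0.27 and the direction was no longer opposite.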

How the results depend on the processing

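No paired analysis was possible because the labels number no replicates, with 1 library in each group, and so no replicate could be left out. Relative to the 2-fold call with a pseudocount of 1, the members had 0 calls against DMSO under every alternative but 3: TPM called 1 higher at 100 nM 24 h (RYR2, which passes the filter on that scale), the 1.5-fold limit called 1 at 200 nM 24 h, and DMSO 24 h as reference at 48 h, chosen after seeing the data, called 1 at 100 nM (ORAI3). The members' median (9 genes passing the filter) was -0.013 at 100 nM 24 h and 0.20 at 200 nM 48 h with the mean of both DMSO libraries as reference, against 0.12 and 0.07, and 0.28 and 0.34 at 100 nM and 200 nM 48 h with DMSO 24 h as reference, against 0.08 and 0.07. Of the single members' 40 differences, 9 changed sign with the mean of both DMSO libraries, and 5 of 20 with DMSO 24 h at 48 h. ORAI3 at 200 nM 48 h, for example, went from -0.42 to 0.15 and 0.71. With DMSO 48 h and 100 nM 48 h exchanged, also chosen after seeing the data, 14 of 20 changed sign, the members' median over the 9 genes at 48 h was -0.083 for the low dose and -0.017 for the high one, with 1 listed gene called higher for the latter. None changed sign with TPM, median-of-ratios factors or either smaller pseudocount. For the listed calcium-handling genes, 2 rather than 1 were called higher at 100 nM 24 h with pseudocounts of 0.1 and 0.01 and at 1.5-fold, and 0 with the mean of both DMSO libraries. At 200 nM 24 h, against 2 higher and 1 lower, 2 were lower with pseudocounts of 0.1 and 0.01 and with TPM, 4 were higher with 0.01, 1 was higher where both libraries had to reach 1 FPKM, 5 were higher and 4 lower at 1.5-fold, and 1 was higher and 0 lower with the mean of both DMSO libraries. At 48 h, against 0, 1 was called higher at 200 nM with either smaller pseudocount, and 1 at 100 nM and 3 at 200 nM with DMSO 24 h as reference. At 1.5-fold, 6.8% and 20.1% of all genes were called in either direction at 100 nM and 200 nM 24 h. The rescaled counts of time and dose patterns and those without DMSO 48 h and 100 nM 48 h were also added after seeing the data. Members with all 48 h libraries above numbered 3 with TPM and 5 with median-of-ratios factors, against 4. Depth limits RYR2 most, at 15 inferred fragments in its lowest library.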
